A study of Mus musculus with 42 samples.

Results

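The effect of calpain 3 loss on gene expression was examined in the quadriceps of young mice. The comparison holds the 8 of 42 arrays whose titles give quadriceps, young age and a genotype: 4 of C3KO mice (J4-1, J4-2, H4-1 and H4-2) and 4 of wild-type (wt) mice (F4-1 to F4-4). The mice were males of 2 to 3 months, and both genotypes carry the strain label 129 SvEvBrd x C57BL/6 heterozygotes. C3KO is read here as a knockout of Capn3, the gene of calpain 3. Adult quadriceps of 11 to 12 months, with 7 C3KO and 6 wt arrays, entered the same fit and serves as the second age. Every wt young mouse has the prefix F4, and every C3KO young mouse has J4 or H4, so that prefix and genotype cannot be told apart. What a prefix stands for (a cage, a litter or a line) is not given in the sources used here. Each array's description also opens with a code of unstated meaning: all young quadriceps arrays have code 1-3, while in adults 4 of 7 C3KO arrays but 1 of 6 wt arrays have code 1-1 and the others 1-3. All differences are C3KO minus wt on the log2 scale with their standard errors, adjusted p values are from limma with Benjamini-Hochberg adjustment over all 11908 genes tested, and a gene is said to rise or fall where its adjusted p was under 0.05.

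Calpain 3 is a calcium-dependent cysteine protease found mainly in skeletal muscle, where it binds the giant sarcomere protein titin, and loss of its activity causes a limb-girdle muscular dystrophy in humans. It has been linked to turnover of sarcomere proteins, to the triad, where calcium release is coupled to excitation, and to CaMKII signalling. The quadriceps of the mouse is mostly fast glycolytic muscle.

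The 8 arrays had nearly equal medians, from 4.38 to 4.44, and the correlation between any 2 of them lay between 0.977 and 0.994. Fast muscle genes were high on all 8 arrays: the mean level of 10 of them was 13.98 to 13.99 on wt and 13.99 to 14.05 on C3KO arrays. This list was not compared with soleus, and its member Myh1 averaged 13.21 in wt young quadriceps and 13.37 in wt young soleus. The slow myosin gene Myh7 averaged 8.19 in wt and 7.56 in C3KO quadriceps, against 13.67 and 13.27 in soleus of the same mice. Of 8 liver markers on the array, Alb, Apob, Fga and Fgb stayed under the median of each of the 8 arrays, and the other 4 exceeded it on at least 1, with a mean of the list of 4.39 to 4.64 on wt and 4.29 to 4.54 on C3KO arrays. The actin 3' minus 5' difference, a sign of RNA integrity, was 0.366 ± 0.189 in wt and 0.306 ± 0.204 in C3KO (SD, n = 4 each). Within wt, F4-1 and F4-2 stood apart: on the first principal component, with 31.8% of the variance, they lay at 22.7 and 19.8, F4-3 and F4-4 at 0.47 and 1.93, and the C3KO arrays between -16.6 and -5.88. The calls that were lost in a fit without both arrays are named below. With 4 arrays in each group, the number of arrays limits the precision, and in whole muscle fewer cells of a type and less RNA per cell cannot be told apart.

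Capn3 separated the genotypes on every array. Its log2 values were 10.17, 10.23, 10.16 and 10.21 in wt and 4.34, 4.38, 4.32 and 4.49 in C3KO. The difference was -5.81 ± 0.122 (adjusted p = 6.42e-20), and it was -5.87 ± 0.096 in adults. In C3KO the probe set lay near the middle of all probe sets, between the percentiles 48.7 and 51.1, so the size is a lower bound. Where the probe set lies relative to the altered part of the gene is not given in the sources used here.

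In all, 108 of 11908 genes (0.907%) passed in young quadriceps, of which 42 rose (0.353%) and 66 fell (0.554%), Capn3 included. In 26 genes (0.218%) the difference was over 2-fold. Without adjustment, 1328 genes (11.2%) had a limma p under 0.05, 610 higher and 718 lower. The values of the groups did not overlap in 105 of the 108, against 788 genes (6.62%) among all tested. The calls come from the same values and favour such genes, so this adds no separate evidence. The number of calls depended on single arrays: it ran from 48 without J4-1 to 130 when each young array was left out in turn, and was 49 without both F4-1 and F4-2. With the 8 young arrays fitted alone it was 72, of which 52 were among the 108. Of the 108 genes, 34 passed in all 8 fits with 1 young array left out, and 34 passed without F4-1 and F4-2. Of the calls described below, those of Capn3, Tmem87a, Pla2g4e, Zscan29, Exd1, Spata5l1, Cap1, Tmem69, Pafah2, Sdc4, Vegfc, Pisd-ps3, Blvrb, Serinc3, Smox, Clu, Icam1, Hspa1b, Hsph1, Hspb6 and Ahsa2 were kept without both arrays, and the others were lost. Among 50 called genes with more than 1 probe set past the filter, all probe sets differed in the same direction in 39.

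Among the single lists examined, that of the HSP70 and HSP110 chaperones held the most genes that fell, 5 of 8. Chaperones bind unfolded proteins and help them fold, and many are induced through heat shock factor 1 when proteins unfold, for instance during heat or contraction. Of 63 genes in 7 chaperone lists, 59 were measured: 10 fell, none rose, and 49 did not pass. The share that fell over all genes tested was 0.554%. Without adjustment 26 of the 59 had a limma p under 0.05, 25 lower and 1 higher, against 11.2% of all genes tested. The median difference over the 59 was -0.18 in young quadriceps, against -0.00 over all genes tested, and -0.03 in adult quadriceps. Without F4-1 and F4-2 the number that fell was 4 (Hspa1b, Hsph1, Hspb6 and Ahsa2) and the median was -0.22. With 1 array left out at a time the number that fell was 3 without H4-1, 4 without J4-1, F4-2 or F4-4, 5 without H4-2, 6 without J4-2, 9 without F4-1 and 11 without F4-3. With the 8 young arrays fitted alone, 2 HSP70 and HSP110 genes, 1 small heat shock protein and 1 regulator fell. No HSP90, HSP40, mitochondrial or endoplasmic reticulum chaperone fell in that fit.

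Heat shock factors bind paired GAA units, and 4 promoters of chaperone genes that fell are shown, of which Hspa1b, Hspa1a and Hsph1 hold such a pair and Dnajb1 does not. Each is the 250 bases before the transcription start, 5' to 3' on the gene's strand, from RefSeq with build GRCm38.p6. Hsph1 and Dnajb1 have 2 listed starts each, and the first is shown. Capitals mark a match to GAANNTTC or to TTCNNGAA, each its own reverse complement, so a match on 1 strand is a match on both. Hspa1b is chr17:34959239-34959488 on the minus strand, Hspa1a is chr17:34972157-34972406 on the minus strand, Hsph1 is chr5:149636337-149636586 on the minus strand, and Dnajb1 is chr8:83607925-83608174 on the plus strand.
Hspa1b: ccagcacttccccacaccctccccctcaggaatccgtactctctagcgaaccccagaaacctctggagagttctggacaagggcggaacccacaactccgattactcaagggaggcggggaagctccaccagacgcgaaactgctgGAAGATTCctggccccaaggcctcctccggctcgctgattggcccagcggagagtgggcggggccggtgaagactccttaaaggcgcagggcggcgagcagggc
Hspa1a: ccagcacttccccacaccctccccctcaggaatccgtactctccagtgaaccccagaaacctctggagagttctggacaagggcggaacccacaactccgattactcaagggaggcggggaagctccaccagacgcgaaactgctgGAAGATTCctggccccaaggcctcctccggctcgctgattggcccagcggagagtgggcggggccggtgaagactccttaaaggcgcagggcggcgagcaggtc
Hsph1: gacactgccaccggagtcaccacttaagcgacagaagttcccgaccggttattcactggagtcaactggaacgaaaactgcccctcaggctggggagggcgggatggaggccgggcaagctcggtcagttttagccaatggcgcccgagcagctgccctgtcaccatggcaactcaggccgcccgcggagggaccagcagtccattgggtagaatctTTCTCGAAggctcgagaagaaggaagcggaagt
Dnajb1: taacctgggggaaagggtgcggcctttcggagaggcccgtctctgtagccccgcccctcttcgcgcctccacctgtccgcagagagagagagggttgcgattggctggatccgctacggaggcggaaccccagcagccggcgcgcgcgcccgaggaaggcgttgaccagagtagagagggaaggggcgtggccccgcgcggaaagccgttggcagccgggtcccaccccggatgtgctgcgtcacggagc
The Hspa1a and Hspa1b promoters were identical at 247 of 250 bases. Of the 10 genes that fell, 8 had a promoter in the table, and 4 of these (Hspa1a, Hspa1b, Hspb6 and Hsph1) held a match, while Ahsa2, Dnajb1, Hspa1l and Hspa4l held none. A gene was counted where any of its listed starts had a match, and Hspb6 had a match at 1 of its 2 starts only. Of chaperone genes that did not pass, 11 of 43 (25.6%) had a match, as did 1162 of 9601 genes tested (12.1%). Counted singly rather than by gene, 12.8% of all 32851 windows of this length held a match. The cAMP response element TGACGTCA, a palindrome, was found in none of the 8 genes and in 2.90% of genes tested that had a promoter. A match is a stretch of letters and was not tested as a binding site.

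Among the HSP70 and HSP110 chaperones, 5 of 8 fell, and the median difference was -0.80, against 0.20 in adults. Hspa1b, a stress-inducible HSP70, read 8.34, 12.15, 7.97 and 10.38 on the wt arrays F4-1 to F4-4 and 6.06, 6.78, 6.30 and 6.96 on the C3KO arrays J4-1, J4-2, H4-1 and H4-2. All wt arrays lay above all C3KO arrays, and F4-2 and F4-4 were the highest by a wide margin. The difference was -3.19 ± 0.611 (9.12-fold lower, adjusted p = 0.0104), and the other probe sets gave -3.07 and -3.13. It kept its call whichever array was left out, with adjusted p up to 0.0462, and was -2.65 without F4-1 and F4-2 (adjusted p = 0.032). The call was lost with the 8 young arrays fitted alone (adjusted p = 0.0900), with J4 as the only C3KO mice (adjusted p = 0.0811) and with H4 as the only ones (adjusted p = 0.164), at differences of -3.08 to -3.29. Its near-identical copy Hspa1a, which probes may not tell apart from Hspa1b, read 7.32, 10.94, 6.75 and 8.83 in wt and 5.21, 6.27, 5.67 and 6.06 in C3KO. The groups did not overlap, and the same arrays were high. The Hspa1a difference of -2.66 ± 0.607 (adjusted p = 0.0353) lost its call without J4-1, J4-2, F4-2, F4-4, H4-1 or H4-2 (adjusted p up to 0.132) and was -1.99 without F4-1 and F4-2 (adjusted p = 0.152).

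The HSP110 proteins exchange the nucleotide of HSP70 and so reset it. Hsph1, of this family, read 9.97, 10.49, 9.92 and 10.32 in wt and 9.24, 9.32, 9.36 and 9.06 in C3KO. Its groups were well apart, and the difference of -0.93 ± 0.153 (adjusted p = 0.00191) held whichever array was left out. Hspa4l, another HSP110, read 6.53, 7.45, 6.20 and 6.54 in wt and 5.98, 5.74, 5.07 and 5.45 in C3KO, again without overlap. Its difference was -1.12 ± 0.259 (adjusted p = 0.0366), all 5 of its probe sets were lower, and it lost its call without J4-2, F4-1, F4-2, F4-4, H4-1 or H4-2 (adjusted p up to 0.144). Hspa1l, the HSP70 best known from testis, was 7.44 ± 0.128 in wt and 6.78 ± 0.0999 in C3KO (SD, n = 4 each). Its difference of -0.66 ± 0.152 (adjusted p = 0.0353) was lost when any array but F4-3 was left out, with adjusted p up to 0.116.

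The partners of HSP70 and the HSP90 machinery gave fewer calls. Of 10 HSP40 cochaperones, which hand clients to HSP70, 1 fell: Dnajb1, at 7.80, 10.26, 8.01 and 8.69 in wt and 7.26, 6.97, 6.98 and 7.28 in C3KO. F4-2 was again the highest, and the groups did not overlap. The Dnajb1 difference was -1.57 ± 0.358 (adjusted p = 0.0353), and it lost its call without J4-1, J4-2, F4-2, F4-4, H4-1 or H4-2 (adjusted p up to 0.104). Dnaja1, of the same family, did not pass (-0.75 ± 0.206, adjusted p = 0.0901). Hsp90aa1, the inducible cytosolic HSP90, read 10.51, 11.39, 10.28 and 10.53 in wt and 9.70, 9.95, 9.68 and 9.91 in C3KO, a difference of -0.87 ± 0.181 (adjusted p = 0.0199). Its lowest wt array was above its highest C3KO array, and the call was lost without J4-1, F4-2 or H4-1 (adjusted p up to 0.0734). Of 16 regulators and cochaperones, Ahsa2, an activator of the HSP90 ATPase, fell, with 8.45, 9.00, 8.58 and 8.68 in wt and 8.11, 7.93, 8.09 and 7.97 in C3KO. The Ahsa2 difference of -0.65 ± 0.1 (adjusted p = 0.00112) had the groups apart and held whichever array was left out.

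Small heat shock proteins hold unfolded proteins without ATP and are abundant in muscle. All 7 measured had lower values in C3KO, with a median difference of -0.55 against -0.06 in adults, and 2 passed. Cryab, alpha B-crystallin, which binds desmin and titin, read 12.78, 13.002, 13.01 and 13.12 in wt and 12.30, 12.55, 12.18 and 12.34 in C3KO. The groups did not overlap, and the difference was -0.64 ± 0.133 (adjusted p = 0.0199), lost without J4-1, F4-2, F4-4 or H4-1 (adjusted p up to 0.069). Hspb6 read 12.96, 12.81, 13.14 and 13.38 in wt and 12.33, 12.68, 12.51 and 12.57 in C3KO, a difference of -0.55 ± 0.132 (adjusted p = 0.045) that was lost without any array but F4-2 (adjusted p up to 0.182). Neither gene had its highest wt value on F4-1 or F4-2. Hspb1 (-0.61 ± 0.169, adjusted p = 0.0943) and Hspb8 (-0.41 ± 0.125, adjusted p = 0.15) did not pass. None of 6 mitochondrial and 12 endoplasmic reticulum chaperones passed, and their median differences were -0.15 and -0.08, with 2 of each lower at an unadjusted limma p under 0.05. The plot of chaperone values by array shows the spread in wt young muscle beside the other groups.

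**Figure D1:**
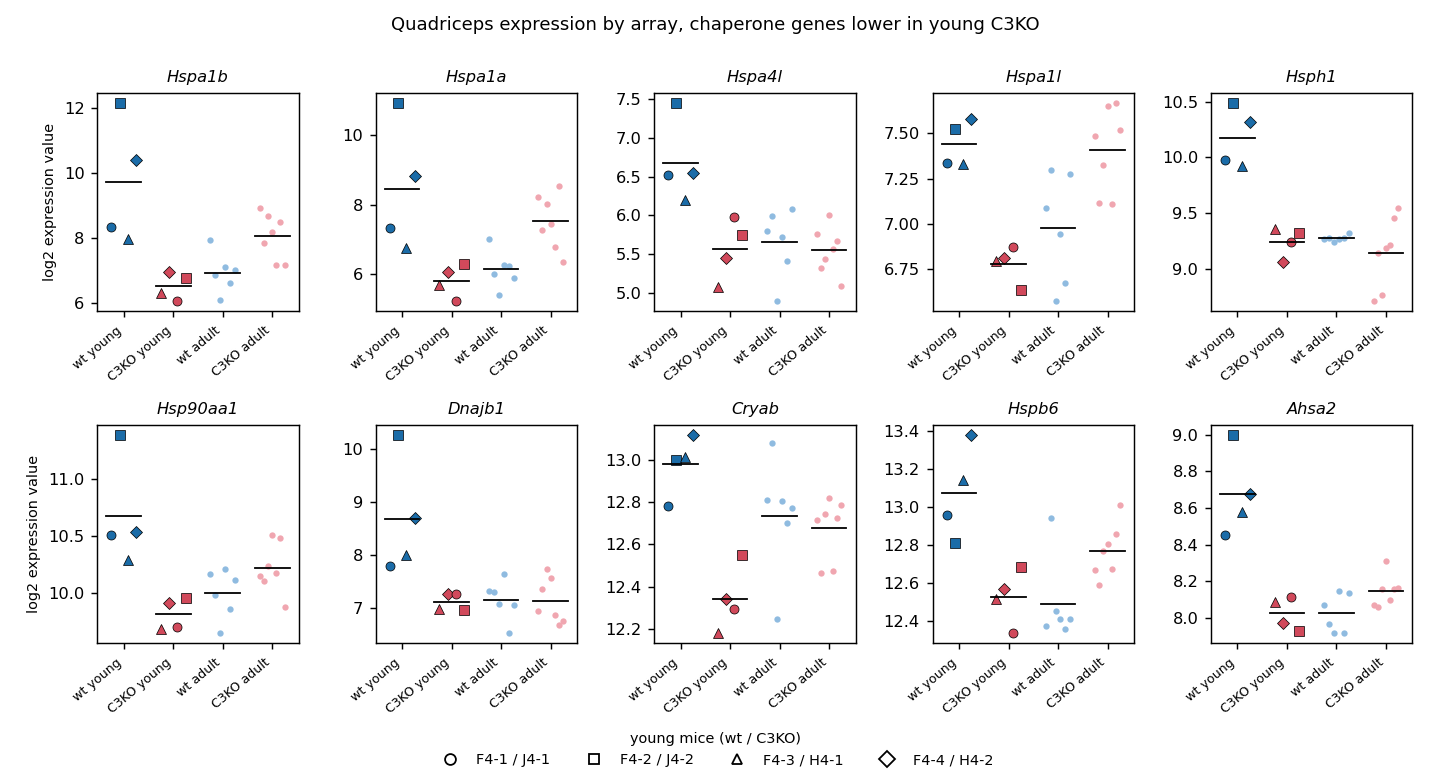
Log2 expression of the 10 chaperone genes that fell, 1 panel a gene, on each quadriceps array of wt young, C3KO young, wt adult and C3KO adult mice. Points are arrays, with a symbol for each young mouse, and lines are group means. For Hspa1b the wt young arrays run from 7.97 to 12.15 and the C3KO young arrays from 6.06 to 6.96.

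The chaperone differences were then set against those of adult quadriceps, which shares no array with the young comparison but is unequal in description code between genotypes. In adults none of the 59 passed (15 had an unadjusted limma p under 0.05, 10 higher and 5 lower), and Hspa1b was higher by 1.12 ± 0.481 (adjusted p = 0.39), with 6.11, 6.93 and 7.93 as lowest, median and highest wt values and 7.16, 8.17 and 8.91 as those of C3KO. The C3KO young values of 6.06 to 6.96 thus lay within or just under the range of wt adults, and wt young values lay above the wt adult range. The young minus adult difference in the genotype effect passed for 6 of the 59, against 45 of all 11908 genes (0.378%). It was -4.31 ± 0.778 for Hspa1b (adjusted p = 0.016), -4.04 ± 0.773 for Hspa1a (adjusted p = 0.0271), -1.10 ± 0.193 for Hspa1l (adjusted p = 0.0126) and -0.77 ± 0.127 for Ahsa2 (adjusted p = 0.00992). It also passed for Hsp90aa1 (-1.09, adjusted p = 0.0394) and Hspb6 (-0.82, adjusted p = 0.0328). Hspa1l and Ahsa2 passed in all fits with 1 young array left out. Hspa1b missed without J4-1 (adjusted p = 0.0538), Hspa1a without J4-1 or F4-4 (adjusted p up to 0.0629), Hspb6 without J4-1, F4-4 or H4-1 (adjusted p up to 0.0887) and Hsp90aa1 in 6 of the 8 fits (adjusted p up to 0.0993). Without F4-1 and F4-2, Ahsa2 (adjusted p = 0.0228), Hspa1b (adjusted p = 0.0272) and Hspb6 (adjusted p = 0.0272) passed, and Hspa1l (adjusted p = 0.0666), Hspa1a (adjusted p = 0.0545) and Hsp90aa1 (adjusted p = 0.122) did not.

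These differences between ages also moved with the description code. With the code as a term in the fit, Hspa1b (-3.94, adjusted p = 0.0384), Hspa1l (-1.09, adjusted p = 0.0337), Ahsa2 (-0.76, adjusted p = 0.0209) and Hspb6 (-0.88, adjusted p = 0.0384) passed, while Hspa1a (-3.76, adjusted p = 0.0509) and Hsp90aa1 (-1.04, adjusted p = 0.0641) did not. With the arrays of code 1-3 alone none of the 6 passed, with an adjusted p of 0.112 for Hspa1b (-4.06) and from 0.0667 to 0.172 for the others. Hsph1, which did not pass over all arrays, passed in both (-0.93 and -1.06, adjusted p = 0.0384 and 0.0276). The adult difference of Hspa1b was 0.47 within code 1-1, which holds 1 wt array, and 0.87 within code 1-3. Over all genes, the number with a difference between ages fell from 45 to 18 with the code as a term, 15 of them among the 45, and to 13 with code 1-3 alone, 9 of them among the 45.

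A few signalling and acute-response genes also fell, and apart from Icam1 their calls were lost without F4-1 and F4-2. Over all genes tested, 0.554% fell and the median difference was -0.00. Of 18 cytokine, STAT3 and NF-kB response genes, 2 fell, Icam1 and Socs3, and the median difference was -0.31. The median was -0.16 without F4-1 and -0.12 without F4-1 and F4-2, and in both of these fits 1 gene fell. Icam1, an adhesion molecule for leukocytes, read 5.34, 6.12, 4.75 and 4.85 in wt and 3.83, 3.85, 3.73 and 3.92 in C3KO. The C3KO arrays lay under the array median and under all other quadriceps arrays, so the difference of -1.44 ± 0.205 (adjusted p = 0.000503) is a lower bound. It was -0.97 without F4-1 and F4-2 (adjusted p = 0.00685) and held whichever array was left out. Socs3, an inhibitor of cytokine signalling through STAT3, read 7.56, 7.64, 6.01 and 7.26 in wt and 5.56, 5.52, 6.08 and 5.46 in C3KO. F4-3 lay under H4-1, so the groups overlapped. The Socs3 difference was -1.46 ± 0.287 (adjusted p = 0.0128), and it was lost without F4-1 or F4-2 (adjusted p up to 0.0575) and without both (-0.98, adjusted p = 0.266). Neutrophil markers reached higher levels in wt: their mean over 6 genes was 3.76 to 4.50 on wt and 3.74 to 3.81 on C3KO arrays, with Csf3r, Cxcr2 and Camp under the median on all 8. Their part in the result was not tested.

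Immediate early genes are switched on within minutes of a stimulus such as contraction or stress. Of 20 measured, 1 fell, Nr4a3, 19 had lower values in C3KO, and the median difference was -0.43, which became -0.03 without F4-1 and F4-2. The number that fell was 5 without F4-3 and 0 without J4-1, J4-2, F4-1, F4-2, H4-1 or H4-2. Nr4a3, an orphan nuclear receptor induced by exercise, read 8.18, 8.80, 5.37 and 5.76 in wt and 4.55, 4.78, 4.48 and 4.45 in C3KO. F4-1 and F4-2 were far above F4-3 and F4-4. Its difference of -2.46 ± 0.599 (adjusted p = 0.0499) was lost without J4-1, J4-2, F4-1, F4-2, H4-1 or H4-2. On the same probe set it was -1.87 ± 0.57 without F4-2 (adjusted p = 0.179) and -0.997 ± 0.518 without both F4-1 and F4-2 (adjusted p = 0.582). In both of these fits the gene's other probe set was the brighter, and it gave -0.02 and 0.01. Over all arrays the other probe set differed by 0.03. Fosl2 (-0.83 ± 0.202, adjusted p = 0.0506), a partner of Jun proteins, and Nr4a1 (-0.87 ± 0.218, adjusted p = 0.0573) did not pass. All 12 glucocorticoid targets measured had lower values, with a median of -0.58, and none passed, while 4 had an unadjusted limma p under 0.05. The median was -0.13 without F4-1 and F4-2. Zbtb16 was an example, at 9.35 ± 0.624 in wt and 8.68 ± 0.335 in C3KO (SD, n = 4 each, adjusted p = 0.327).

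Noct, nocturnin, a phosphatase with a daily rhythm, also fell. It read 9.23, 9.60, 8.51 and 9.06 in wt and 7.85, 8.20, 8.01 and 8.11 in C3KO, without overlap. The difference was -1.06 ± 0.219 (adjusted p = 0.0189), lost without J4-1, F4-1 or F4-2 (adjusted p up to 0.0796) and without both F4 arrays (-0.74, adjusted p = 0.278). In adults it was 0.71 ± 0.172 (adjusted p = 0.0555). The difference between the ages, -1.76 ± 0.278 (adjusted p = 0.00992), held whichever young array was left out, with the code as a term (-1.53, adjusted p = 0.00565) and with code 1-3 alone (-1.40, adjusted p = 0.0447). It was lost without F4-1 and F4-2 (-1.45, adjusted p = 0.0637). Of 15 circadian clock genes none passed, 2 had an unadjusted limma p under 0.05, and their median was 0.08.

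In several other falls all 4 wt arrays lay above all 4 C3KO arrays. Smox, spermine oxidase, an enzyme of polyamine breakdown, read 11.77, 11.60, 11.55 and 11.98 in wt and 9.97, 9.70, 10.07 and 9.94 in C3KO. Both groups were tight and far apart, and the wt young values were also above all other quadriceps arrays. The Smox difference was -1.81 ± 0.316 (3.5-fold lower, adjusted p = 0.0043), and in adults it was -0.98 ± 0.249 (adjusted p = 0.0662). Of the 7 polyamine genes measured, Oaz2, an antizyme that limits polyamine synthesis, rose (0.63 ± 0.135, adjusted p = 0.025), a call lost without J4-1, J4-2, F4-1 or F4-2 (adjusted p up to 0.0959). Oaz1 (0.31 ± 0.0824, adjusted p = 0.0776) and Odc1, the enzyme that antizymes inhibit (-0.67 ± 0.192, adjusted p = 0.106), did not pass.

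Serinc3, a membrane protein of the serine incorporator family, read 11.01, 10.61, 10.69 and 10.85 in wt and 9.37, 9.17, 9.52 and 9.40 in C3KO. The groups were apart by more than the spread of either, and the difference was -1.43 ± 0.172 (adjusted p = 5.82e-05). It also passed in adults (-0.62 ± 0.136, adjusted p = 0.028). Clu, clusterin, an extracellular chaperone, read 10.09, 10.18, 10.49 and 10.83 in wt and 9.40, 9.48, 9.40 and 9.15 in C3KO, and its 4 probe sets gave differences of -1.04 to -1.02. The groups did not overlap, and the tested difference was -1.04 ± 0.186 (adjusted p = 0.00519). Of 31 proteasome subunits, only Psmd8, of the regulatory particle, passed (-0.97 ± 0.182, adjusted p = 0.00905), and the list's median was -0.00. Psmd8 held whichever array was left out but not without F4-1 and F4-2 (-0.83, adjusted p = 0.147).

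The rises outside the neighbourhood of Capn3 were led by Sdc4 and Vegfc. Sdc4, a heparan sulfate proteoglycan of the cell surface that also marks muscle satellite cells, read 6.67, 5.50, 6.00 and 6.12 in wt and 8.89, 9.31, 8.46 and 9.33 in C3KO. Every C3KO array was well above every wt array. The Sdc4 difference was 2.92 ± 0.297 (7.59-fold higher, adjusted p = 3.94e-06), but its other probe set past the filter was lower by 0.87, with overlapping groups, so the probe sets disagree. Of 8 syndecans and glypicans measured, Sdc4 alone rose, and Sdc2 differed by 0.29 ± 0.167 (adjusted p = 0.546).

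Vegfc, a growth factor of lymphatic vessels, read 3.78, 4.81, 4.52 and 4.73 in wt and 7.12, 7.44, 7.21 and 6.99 in C3KO. The groups were far apart, and F4-1 lay under the array median. Its difference was 2.73 ± 0.333 (6.64-fold higher, adjusted p = 5.82e-05), and its other probe sets gave 0.76 and 0.19. Its receptor Flt4 differed by -0.03 ± 0.151 (adjusted p = 0.97). Over 4 lymphatic endothelial markers the mean level was 5.78 to 6.17 in wt and 5.79 to 6.15 in C3KO. Of the 9 genes of the VEGF family and its receptors that were measured, Vegfc alone rose and none fell.

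The other named rises were smaller. Blvrb, biliverdin reductase B, which reduces products of haem breakdown, read 6.05, 6.81, 6.73 and 6.94 in wt and 7.71, 7.69, 7.83 and 7.83 in C3KO. The C3KO arrays were nearly equal and above all wt arrays, and the difference was 1.13 ± 0.168 (adjusted p = 0.000843). Of 20 oxidative and metal stress genes, Gstm1, a glutathione transferase, rose (0.55 ± 0.113, adjusted p = 0.0168), a call lost without J4-1, J4-2, F4-1, F4-2 or H4-1 (adjusted p up to 0.0667) and without both F4 arrays (adjusted p = 0.231). Mss51, a mitochondrial protein of muscle linked to respiration, read 9.11, 8.95, 9.36 and 9.04 in wt and 10.26, 9.38, 10.71 and 11.18 in C3KO. J4-2 was just above F4-3, while H4-2 was the highest. The Mss51 difference was 1.27 ± 0.25 (adjusted p = 0.0128), lost without F4-2 (adjusted p = 0.0532).

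Sh3rf2, a ubiquitin ligase, read 5.44, 5.74, 6.21 and 6.06 in wt and 7.14, 7.73, 6.64 and 6.99 in C3KO. The groups were apart, and the difference was 1.26 ± 0.292 (adjusted p = 0.0366), lost without J4-1, J4-2, F4-1, F4-2, F4-4 or H4-2 (adjusted p up to 0.146). Zfp503, a zinc finger regulator of transcription, rose by 0.94 ± 0.213 (adjusted p = 0.0353), a call lost without any array but F4-3 (adjusted p up to 0.11). Lrrc17, a secreted leucine-rich repeat protein, differed by 0.93 ± 0.202 (adjusted p = 0.0281), a lower bound since 3 wt arrays lay under the array median, and lost its call without J4-1, J4-2, F4-1 or F4-2 (adjusted p up to 0.124). Over 8 fibroblast markers, the mean level was 8.75 to 9.30 in wt and 9.28 to 9.35 in C3KO, and its part in these rises was not tested.

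Pisd-ps3, annotated as a pseudogene of phosphatidylserine decarboxylase, read 6.05, 6.21, 6.35 and 6.12 in wt and 8.96, 9.04, 8.67 and 9.18 in C3KO. The groups were far apart, and the difference was 2.78 ± 0.437 (adjusted p = 0.00129). Probes may also read the parent gene or other copies, so the source of the signal is uncertain. The 6 wt adult arrays did not agree: M2-2 and W2-1 read 5.53 and 5.84, and the others read between 7.81 and 8.22. The plot of the leading genes by array shows this split beside the tight young groups.

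**Figure D2:**
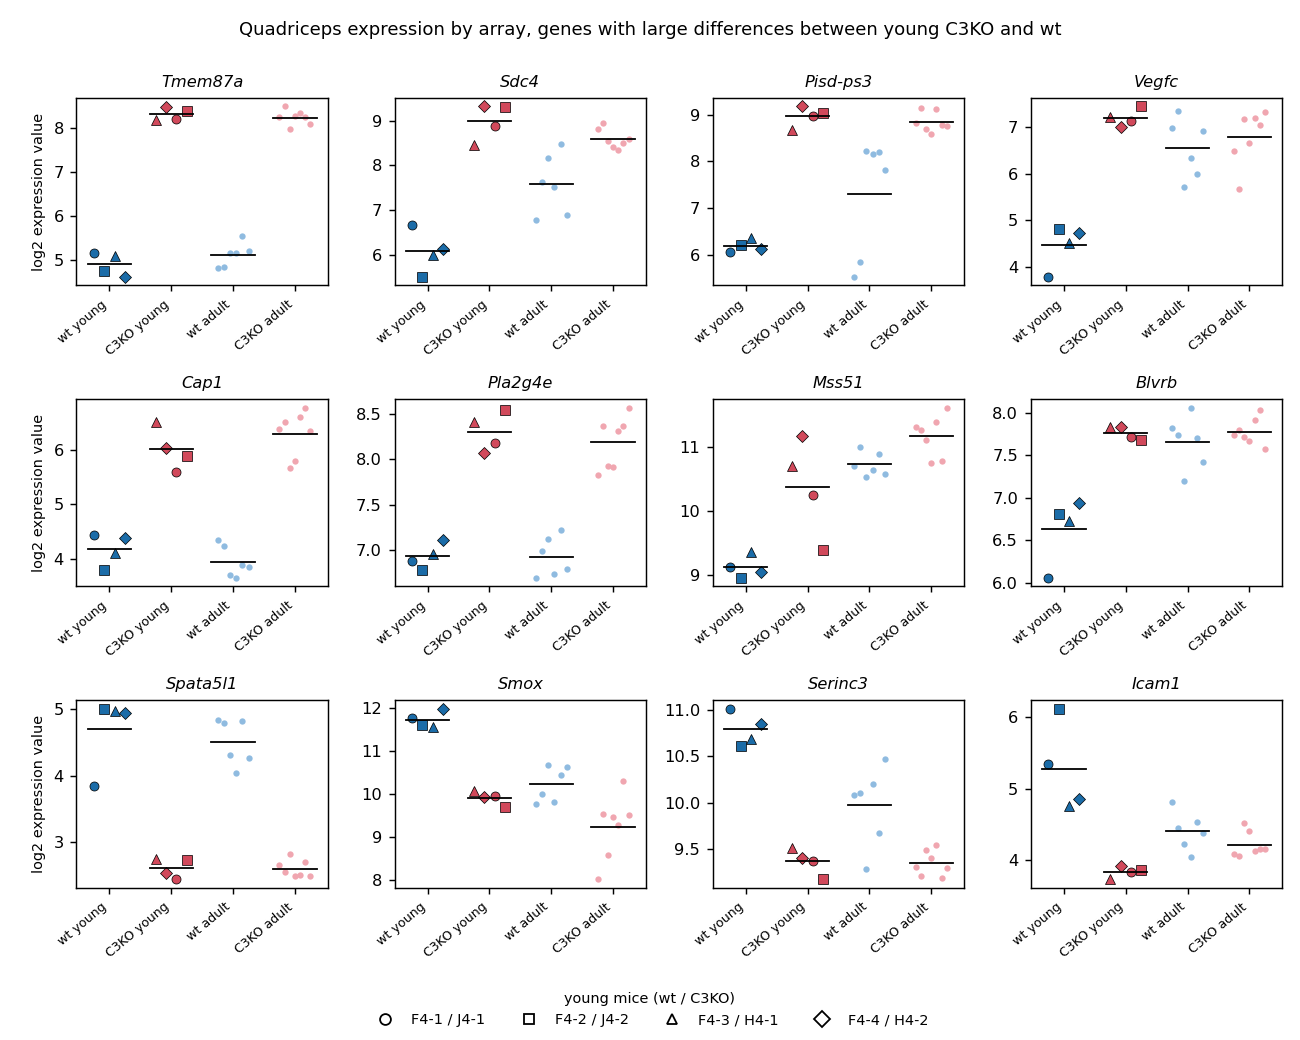
Log2 expression of 12 genes with large differences, 1 panel a gene, on each quadriceps array of the 4 groups. Points are arrays, with a symbol for each young mouse, and lines are group means. Tmem87a, Spata5l1 and Cap1 separate the genotypes at both ages, while wt adults overlap C3KO adults for Vegfc and Blvrb.

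The neighbours of Capn3 on its chromosome were counted apart, with no test of the shares. Of the 100 tested genes nearest to Capn3, 50 on each side, 11 passed in young quadriceps (11%), against 12 of 848 on the rest of that chromosome (1.42%) and 83 of 10942 other genes with a position (0.759%). In adults 19 of the 100 passed, and 10 passed at both ages.

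Tmem87a, a membrane protein of the Golgi, lies 2 tested genes from Capn3 and had the largest rise. Its values were 5.16, 4.75, 5.11 and 4.63 in wt and 8.20, 8.39, 8.19 and 8.47 in C3KO. The groups were far apart at both ages, with differences of 3.40 ± 0.146 in young (10.6-fold higher, adjusted p = 1.92e-13) and 3.11 ± 0.115 in adult quadriceps (adjusted p = 7.66e-15). Pla2g4e, a cytosolic phospholipase A2 at 4 genes from Capn3, read 6.88, 6.78, 6.96 and 7.11 in wt and 8.18, 8.55, 8.41 and 8.08 in C3KO. It rose by 1.37 ± 0.157 (adjusted p = 2.54e-05), and by 1.26 in adults. Zscan29, a zinc finger protein, rose by 1.17 ± 0.181 (adjusted p = 0.00116), and Exd1 rose by 0.73 ± 0.116 (adjusted p = 0.00142).

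Spata5l1, an ATPase of the AAA family at 27 genes from Capn3, read 3.84, 5.004, 4.98 and 4.95 in wt and 2.44, 2.74, 2.74 and 2.54 in C3KO. F4-1 was the lowest of wt but above all C3KO arrays. The difference of -2.08 ± 0.205 (adjusted p = 3.16e-06) is a lower bound, since all C3KO arrays lay under the array median. Of wt, F4-1 also lay under its array median of 4.44. The other neighbours that fell did so by less: Haus2, of the spindle complex augmin, by 0.72, Tubgcp4, of the gamma-tubulin complex, by 0.71, Mga by 0.64, Ndufaf1, an assembly factor of respiratory complex I, by 0.54, Adal by 0.53 and Lrrc57 by 0.51. Of these, Ndufaf1 alone held whichever array was left out, though not without both F4-1 and F4-2 (adjusted p = 0.051). Haus2 and Adal were lost without F4-2 (adjusted p = 0.0548 and 0.0532), Tubgcp4 and Mga in 4 of the 8 fits (adjusted p up to 0.117) and Lrrc57 in 7 (adjusted p up to 0.143). The other probe sets of Haus2 gave differences between -0.12 and 0.12, that of Mga gave 0.08, and those of Tubgcp4 gave -0.57 and -0.05. The plot of neighbours by gene order shows both ages.

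**Figure D3:**
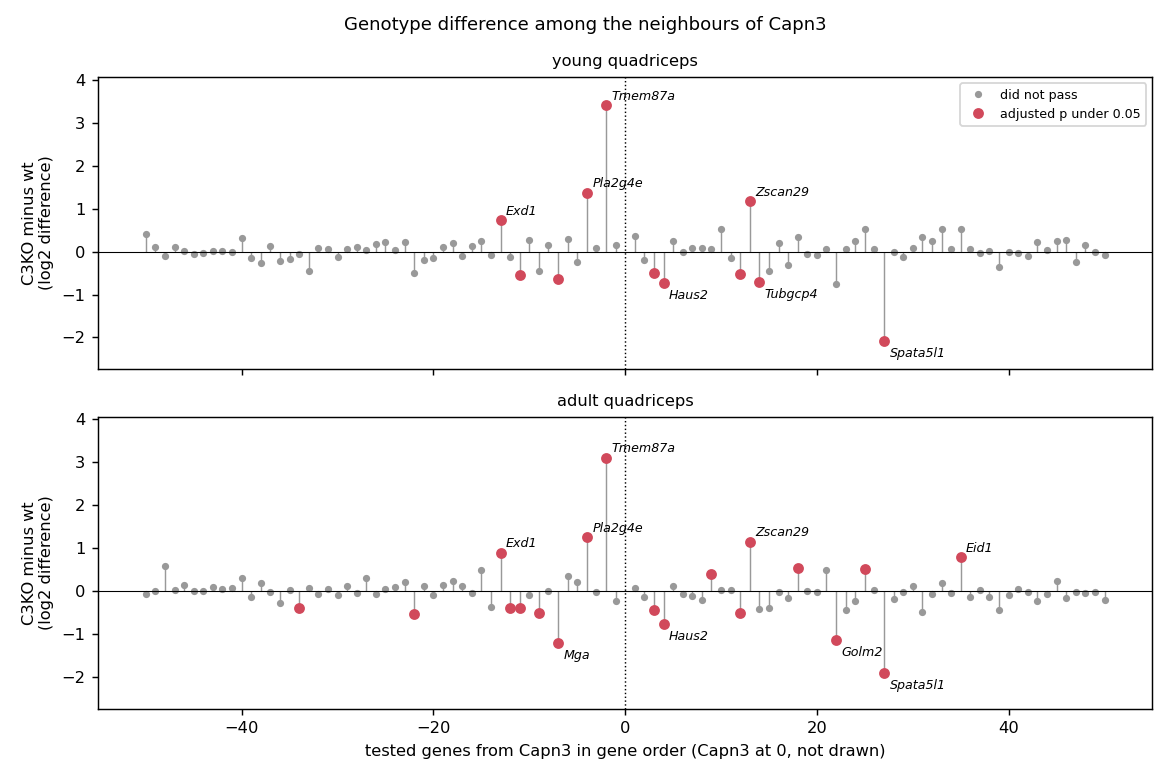
Genotype difference (C3KO minus wt, log2) of the 100 tested genes nearest to Capn3, in gene order, in young (upper) and adult (lower) quadriceps. Red points passed at an adjusted p under 0.05, and genes past 0.7 are named; Tmem87a, Pla2g4e, Zscan29 and Spata5l1 are far from 0 in both.

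A second run of calls, chosen after its values were seen and so without a test, lies on another chromosome between Tmem69 and Pafah2. It holds 186 tested genes, of which 8 passed in young quadriceps (4.30%) and 15 in adult quadriceps, 6 of them at both ages. Its largest member was Cap1, which binds actin and adenylyl cyclase. Cap1 read 4.43, 3.79, 4.11 and 4.38 in wt and 5.60, 5.90, 6.52 and 6.04 in C3KO. None of the wt arrays exceeded its array median, which makes the difference of 1.84 ± 0.226 (adjusted p = 5.85e-05) a lower bound. A further probe set gave 1.90, and in adults the difference was 2.36 ± 0.178. The other members called in young muscle were Tmem69, which rose by 0.75, and Gpbp1l1, Ptprf, Trit1, Dhdds, Zfp593 and Pafah2, which fell by 0.56 to 0.76.

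Genes of muscle structure and of the known roles of calpain 3 were mostly not called. Of 26 sarcomere, Z-disc and titin genes none passed in young quadriceps, with a median of 0.02. By unadjusted limma p under 0.05, 3 of them were higher, and the stretch-response gene Ankrd23 differed by 0.40 ± 0.114 (adjusted p = 0.101). Of 17 costamere and dystrophin complex genes, Vcl, which encodes the actin linker vinculin, fell (-0.55 ± 0.132, adjusted p = 0.045), a call lost without any array but H4-1 (adjusted p up to 0.182). None of 9 calpain system genes, a list without Capn3 itself, passed, with or without adjustment, and their differences ran from -0.13 to 0.23. Cast, the calpain inhibitor calpastatin, was 9.78 ± 0.139 in wt and 9.65 ± 0.105 in C3KO (SD, n = 4 each, adjusted p = 0.812). None passed of 20 calcium handling and triad genes, whose median was 0.10, or of 17 CaMKII and calcineurin genes, whose median was 0.04. By unadjusted limma p under 0.05, 2 of the first were higher and 2 of the second were lower. A p that misses the threshold does not show that levels were equal.

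The fibre type, glycolysis and fatty acid lists gave no calls in young muscle. Of 12 slow fibre genes none passed, with or without adjustment, 11 had lower values, and the median was -0.29. With 1 array left out it ran from -0.73 without F4-3 to 0.03 without H4-1, so its sign turned. In adults the median was 1.43 and none passed, while 5 were higher at an unadjusted limma p under 0.05. Myh7, the slow myosin heavy chain, was 8.19 ± 1.12 in wt and 7.56 ± 1.14 in C3KO (SD, n = 4 each), a spread that exceeds the difference. Of 14 fast fibre genes none passed, 2 were higher without adjustment, and the median was 0.05. None passed of 16 glycolysis and glycogen genes (median -0.05) or 18 fatty acid genes (median -0.17), with 3 of each under 0.05 without adjustment. For the glycolysis gene Pfkfb3, -1.37 in adults, limma's young minus adult difference passed (2.73, adjusted p = 0.0126). It held whichever young array was left out and with the code as a term (adjusted p = 0.00565). With code 1-3 alone its adjusted p was 0.0447, and without F4-1 and F4-2 it was 0.0707. Of 18 atrophy and autophagy genes Mss51 was the 1 that rose, and Foxo1, a driver of atrophy genes, differed by -0.57 ± 0.18 (adjusted p = 0.168). None of 14 regeneration, 19 collagen and fibrosis or 24 interferon and MHC class I genes passed, with medians of -0.05, 0.15 and 0.15. Without adjustment 4, 1 and 9 of them were under 0.05, and 8 of the 9 interferon and MHC class I genes were higher. The plot of gene lists places these medians beside those of the chaperones.

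**Figure D4:**
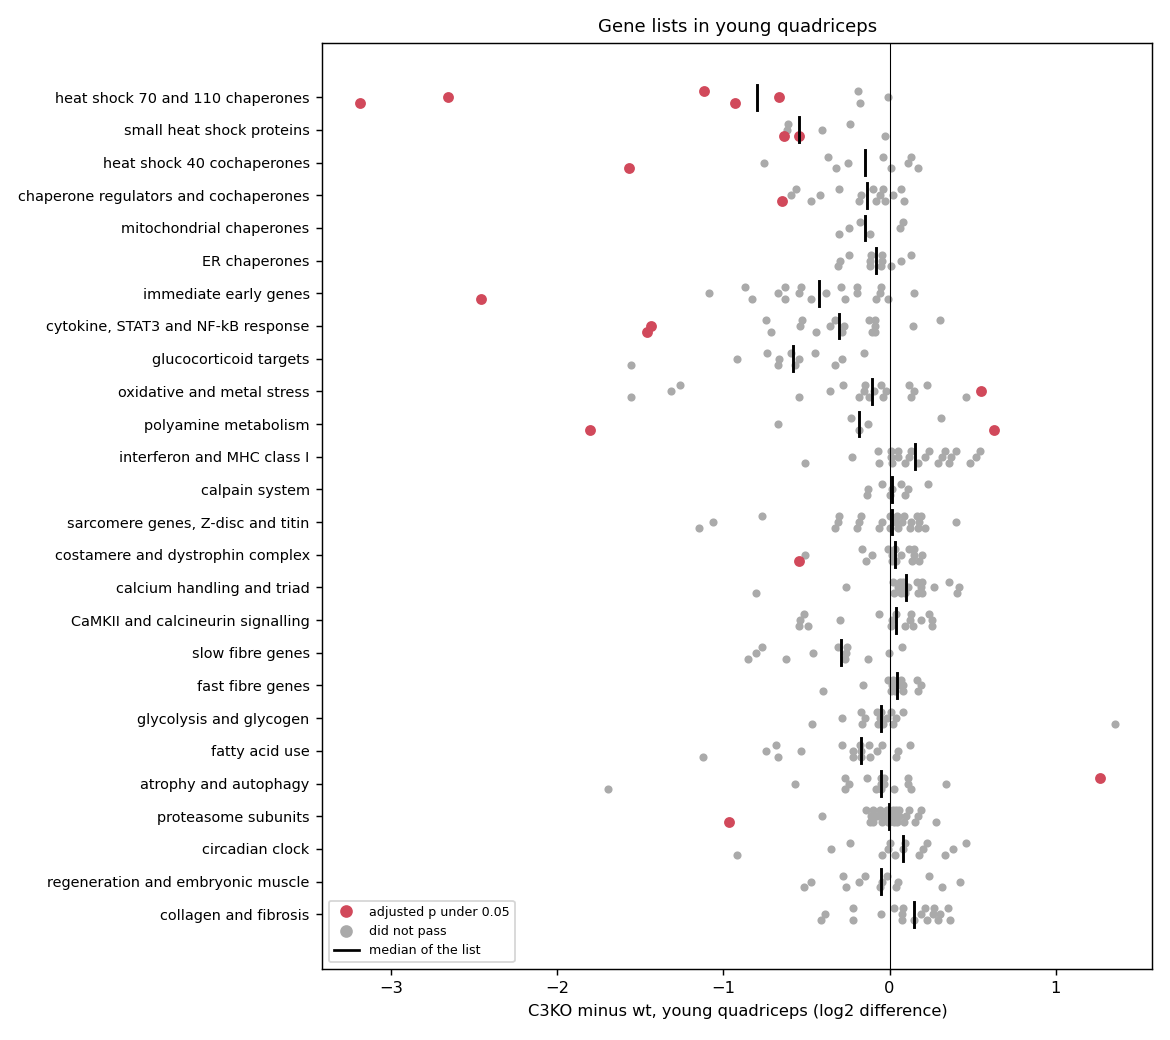
Genotype difference (C3KO minus wt, log2) in young quadriceps for the measured genes of 26 lists, 1 row a list. Red points passed at an adjusted p under 0.05, grey points did not, and bars are list medians. The HSP70 and HSP110 median is -0.80 and that of the calpain system, which leaves out Capn3, is 0.01.

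The young calls were then compared with those in adult quadriceps, where 82 genes passed (0.689%). Of the 108 young calls, 22 were also called in adults in the same direction, which is 20.4% of the young and 26.8% of the adult calls. They include Capn3, 10 of its neighbours counted above, Sdc4, Pisd-ps3, Serinc3 and Cap1. With the description code as a term the 22 became 20, and the adult calls of Sdc4 (adjusted p = 0.0643) and Serinc3 (adjusted p = 0.064) were lost. The gene 2310065F04Rik passed in opposite directions, with 0.64 ± 0.129 in young (adjusted p = 0.0149) and -0.44 ± 0.102 in adults (adjusted p = 0.0431). Its young call was lost without J4-1 (adjusted p = 0.0672), F4-1 (adjusted p = 0.0571) or F4-1 and F4-2 (adjusted p = 0.116), and its adult call was lost with code 1-3 alone (adjusted p = 0.0512). The young minus adult difference passed for 24 of the 108, and for 63 neither the adult test nor the difference between ages passed. Without F4-1 and F4-2, 8 genes passed the test between ages, 5 of them among the 45. The plot of young against adult differences shows these classes.

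**Figure D5:**
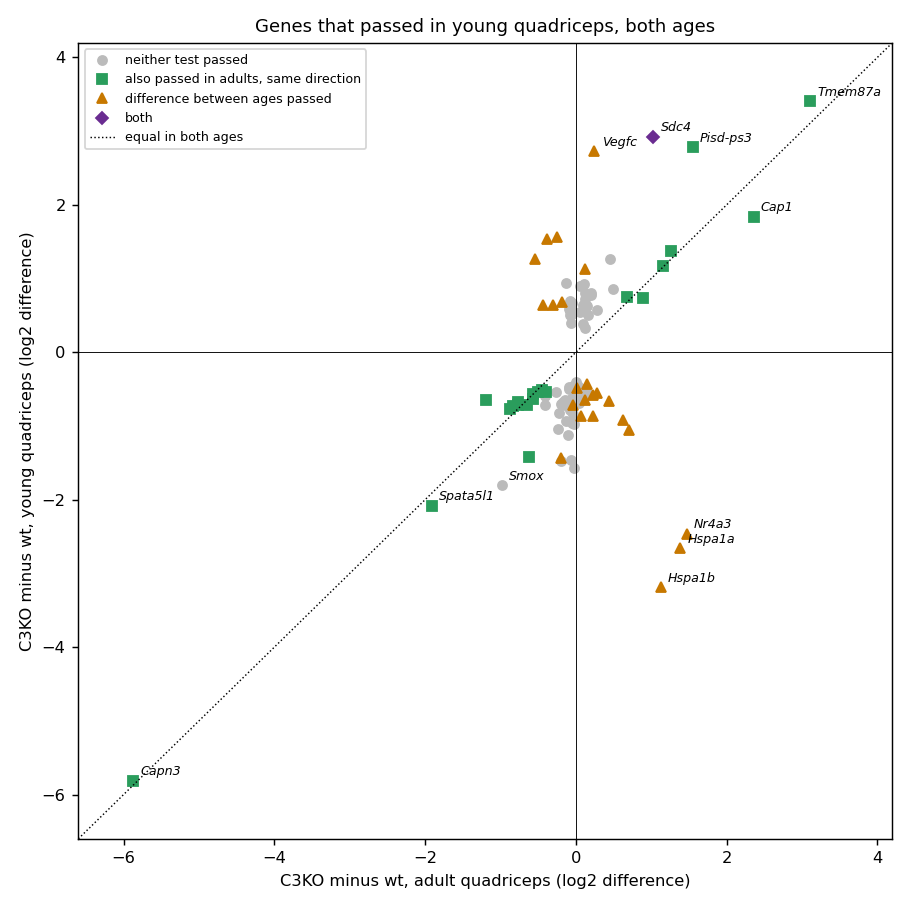
Genotype difference (C3KO minus wt, log2) of the 108 genes that passed in young quadriceps, adult on the x axis and young on the y axis, with the dotted line for equal values. Squares passed in adults too, triangles passed the test between ages and the diamond, Sdc4, passed both; Hspa1a, Hspa1b and Nr4a3 lie at lower right, below 0 in young and above 0 in adults.

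Among the rises, the difference between ages was 2.48 ± 0.424 for Vegfc (adjusted p = 0.0106), which held whichever young array was left out and had an adjusted p of 0.0637 without F4-1 and F4-2, 0.033 with the code as a term and 0.0704 with code 1-3 alone. Adult wt arrays ran from 5.72 to 7.34 for Vegfc and adult C3KO arrays from 5.66 to 7.33, so that the wt young arrays were the low ones. The wt young arrays were also the lowest for Sdc4 and Blvrb. Unlike Vegfc, Sdc4 rose in adults too (1.03), a call lost with the code as a term. The difference between ages for Sdc4 was 1.90 ± 0.378 (adjusted p = 0.0294), lost without J4-1, J4-2, F4-2 or F4-4 and with the code as a term (adjusted p = 0.0537) but not with code 1-3 alone (adjusted p = 0.0474), and for Blvrb 1.01 ± 0.214 (adjusted p = 0.0394), lost in 6 of the 8 fits and in both fits on the code (adjusted p up to 0.241). In 33 of the 108 genes the 4 wt young arrays lay beyond all other 17 quadriceps arrays, against 81 of all genes (0.68%), although a young call already separates them from C3KO young. The C3KO young arrays did so in 3 (Icam1, Hsd17b7 and Cdkn1c), against 21 of all genes (0.176%).

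The soleus, a slow postural muscle, of the same 8 mice was read as a description, without a test. Its groups did not overlap in 871 of all genes (7.31%). Sdc4 was 6.71 in wt and 9.98 in C3KO soleus, a difference of 3.27, or 3.01 without H4-2. The H4-2 soleus array has a description code that no other array shares. Its Myh7 read 12.00, against 13.56, 13.87 and 13.64 on the soleus arrays of J4-1, J4-2 and H4-1. Vegfc differed by 2.32, Pisd-ps3 by 2.94, Tmem87a by 2.81 and Blvrb by 1.28, each without overlap. Serinc3, Hsph1 and Noct were lower by 0.87, 0.91 and 0.81, also without overlap. Hspa1b differed by -1.28, or -1.02 without H4-2, with overlapping groups: wt read 9.56, 11.66, 9.71 and 10.06 and C3KO read 8.95, 9.80, 8.95 and 8.20. F4-2 was the highest wt array in both muscles. Of the 10 chaperones that fell in quadriceps, Hsph1, Hspa1l and Hspb6 did not overlap in soleus, and Hspa1a, Hspa1b, Hspa4l, Dnajb1, Hsp90aa1, Ahsa2 and Cryab did. For Dnajb1, Hsp90aa1 and Ahsa2 the overlap came from H4-2 alone. Their other C3KO arrays read up to 7.33, 10.14 and 7.61, and their wt arrays from 7.45, 10.20 and 7.82. The groups also overlapped there for Smox, Icam1, Socs3, Nr4a3, Clu, Mss51, Sh3rf2, Zfp503, Lrrc17, Oaz2, Vcl, Exd1 and 2310065F04Rik. For Clu and Sh3rf2 the overlap again came from H4-2 alone, and without it they differed by -0.96 and 0.56.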

How the data were processed

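The log2 expression values of 42 Affymetrix arrays were used as deposited by the authors, with no further normalization. The submitters' processing notes list MAS5 and RMA and do not say which gave the table. Per the labels' protocols, RNA was extracted with Trizol and labelled with biotin. For background correction and probe summary nothing further is given in the sources used here. Both arrays of wt mouse M2-1 were left out, since title and description name different muscles.

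Of 45101 probe sets, 34945 had 1 gene symbol, and 34741 of these (99.4%) were matched by gene ID to a RefSeq table of GRCm38.p6, which gave names and gene order. Probe sets above the array median on at least 4 of 21 quadriceps arrays were kept, and the brightest stood for its gene. The 4 quadriceps groups were fitted together with limma 3.58.1 (lmFit, eBayes) in R 4.3.3, two-sided, with Benjamini-Hochberg adjustment at 0.05. The fit was tested on simulated data. A level of a marker list is its mean over its genes on an array.

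Members and gene lists were chosen with earlier results of these data known. Named are Capn3, the 12 largest rises and falls with a named symbol, and up to 4 list members of smallest p. Also named are chaperones and neighbours that passed, and the 5 smallest p between ages. Flt4, Hspb8, Hsd17b7, Cdkn1c, Myh7, Pfkfb3 and the second run were named after their values were seen. Alternatives were other filters, probe averages, quantile normalization, array weights, the actin ratio or the description code as a term, and left-out arrays.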

Additional observations from a re-analysis of the deposited data

Results flagged for a closer look

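For 19 of the 114 genes chosen by the naming rule, the genotype effect differed between young and adult quadriceps in limma's test (adjusted p under 0.05). The young effect minus the adult effect was positive for Sdc4 (1.90), Vegfc (2.48), Sh3rf2 (1.81), Blvrb (1.01), 2310065F04Rik (1.08) and Gm38983 (1.82). It was negative for the chaperones Hspa1a (-4.04), Hspa1b (-4.31), Hspa1l (-1.10), Hsp90aa1 (-1.09), Hspb6 (-0.82) and Ahsa2 (-0.77). It was also negative for Nr4a3 (-3.93), Noct (-1.76), Nudt18 (-1.54), Icam1 (-1.24), Odc1 (-1.15), Foxo1 (-1.13) and Flt1 (-1.09), and of these Odc1, Foxo1 and Flt1 did not pass in young quadriceps. Of the 45 genes that passed this test, 9 did so whichever young array was left out, 15 with the description code as a term, and Nr4a3 on its tested probe set had an adjusted p of 0.13 without F4-1 and F4-2.

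In 14 of 228 groups of 4 young arrays, 1 array lay far from the other 3 by Dixon's criterion, which chance alone meets in about 5% of groups. Within wt these were F4-1 for Spata5l1 (3.84, next 4.95) and Casq1 (12.75), F4-2 for Mga (7.93) and Hspd1 (10.86), and F4-4 for Rcan2 (10.07). Within C3KO they were H4-1 for Socs3 (6.08, next 5.56), Osmr (6.46), Gpc3 (4.14), Sdc2 (7.60) and Stim1 (7.96), J4-1 for Capn15 (6.94) and Usp18 (5.59), and J4-2 for Hspa9 (10.74) and Manf (7.88).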

How the results depend on the processing

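The count of genes that passed in young quadriceps, 108, became 271 with array weights, 37 with the J4 mice as the only C3KO, 28 with the H4 mice, 49 without F4-1 and F4-2, and 48 to 130 when each young array was left out. With the young arrays alone it was 72, 52 of them among the 108. In that fit 14 of 40 genes named by the rule lost their call. The 45 genes that differed between ages became 70 with quantile normalization, 108 with array weights, 18 with the description code as a term, 13 with the arrays of code 1-3 alone, 8 without F4-1 and F4-2 and 9 to 68 with 1 young array left out. The 82 adult calls became 170 with array weights, 24 with code 1-3 alone and 49 to 137 with 1 adult array left out. The 21 list genes that passed became 12 with the young arrays alone, 8 without F4-1 and F4-2, and 9 to 31 with 1 array left out. Under the other filters, probe averaging, the robust variance model and the actin covariate the first 3 counts stayed within 1.5 times, and so did the list genes without a filter, with probe averages and with quantile normalization, the other settings not being run on them. Of 775 values for the 41 genes named by the rule, 592 kept direction and call, 182 kept the direction only, and 1 reversed: Nr4a3, at 0.0088 without F4-1 and F4-2, where its other probe set was the brightest. The settings without F4-1 and F4-2, those on the code, the young arrays alone for lists, and the Nr4a3 probe set kept were chosen after seeing the data. The causes of the other changes were not tested. No paired analysis was possible because the genotypes share no mice and the replicate numbers only follow accession order. Probe sets near the array median bound rather than measure a level.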
